A study of Mus musculus with 2 samples.

Results

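The genes described here are 39 genes of protein folding and the unfolded protein response in the endoplasmic reticulum (ER), chosen by name and found by their symbols among the 32285 genes listed in each count matrix. They fall into 8 roles, from stress sensors to the translocon, and all 39 were measured in plasma cells, the antibody-secreting cells that the report compares with B cells and with the other lineages. Single cells came from mouse colon lamina propria, labelled CD45+ (the surface protein of blood-derived cells), and were captured with the 10x 3' kit, 1 library for each of the 2 groups, labelled CD163_NC and CD163_FL. The series' title speaks of wild-type animals and animals that lack CD163+ macrophages, but no label ties either library to a genotype, so both keep their label names. Strain, age, the number of animals per library and the means by which the macrophages were removed are not stated in the labels. With 1 library per group there are no replicates: no test was made, no p-value is given, all intervals cover counting error only, and every difference between libraries compares these libraries and not the conditions.

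Secreted and membrane proteins enter the ER through the Sec61 translocon, lose their signal peptide to the signal peptidase, and fold with the help of Hsp70-type and Hsp90-type chaperones, the lectins calnexin and calreticulin, and disulfide isomerases. Chains that fail to fold are sent back to the cytosol and destroyed by ER-associated degradation. Load beyond this capacity is sensed by IRE1 (gene Ern1), ATF6 and PERK. IRE1 splices the Xbp1 mRNA, ATF6 is cut to release a transcription factor, and PERK slows translation and favours ATF4, the factor it shares with the amino acid response. Plasma cells depend on XBP1 for the secretory machinery that antibody output needs, and in the gut most of them make IgA, which is joined into dimers by the J chain. The 3' counts hold no information on Xbp1 splicing, on protein or on cleavage of ATF6.

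Promoter letters of these genes are shown first because 2 groups of them are set beside the ratios later. These are chaperone and degradation genes with the ER stress element (ERSE), and genes with a C/EBP-ATF response element (CARE). Windows from 250 bases before to 50 bases after the transcription start were taken from RefSeq on GRCm38.p6 (mm10), where 32 of the 39 genes had an entry. Searched on both strands, the ERSE (CCAAT, then 9 bases of any kind, then CCACG) was found in 9 of 32 genes (28.1%) against 37 of 27025 genes in all (0.137%). ERSE-II (ATTGG, then 1 base of any kind, then CCACG) was found in Dnajb11 and Herpud1, 2 of 32 (6.25%) against 12 genes in all (0.0444%). The 8 bases of the unfolded protein response element TGACGTGG were in 0 of the 32 windows and in 193 windows of all genes (0.714%). The CARE (TGATGNAA) was found in Trib3, Chac1, Asns and Herpud1, 4 of 32 (12.5%) against 1219 in all (4.51%). ERSE and ERSE-II share the letters CCACG, whose reverse complement also sits in TGACGTGG. No match overlapped another in the stretches printed here. A match is a string of letters and not a shown binding site.

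The stretches that hold the ERSE are printed 5′ to 3′ along the gene's strand, from upstream of the RefSeq start, with the fixed letters of the match in capitals. A match on the opposite strand reads CGTGG first and ATTGG last, as in Calr, Creld2 and Derl3, and Hsp90b1 holds a match on each strand.
Hspa5: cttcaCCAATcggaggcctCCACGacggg
Hsp90b1: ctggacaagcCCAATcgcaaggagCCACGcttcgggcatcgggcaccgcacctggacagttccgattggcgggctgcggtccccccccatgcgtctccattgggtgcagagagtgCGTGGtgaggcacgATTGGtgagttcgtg
Dnajc3: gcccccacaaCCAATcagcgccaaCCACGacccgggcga
Creld2: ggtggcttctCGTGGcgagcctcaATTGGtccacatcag
Calr: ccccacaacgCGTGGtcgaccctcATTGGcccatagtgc
Canx: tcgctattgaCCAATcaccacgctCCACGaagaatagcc
Pdia6: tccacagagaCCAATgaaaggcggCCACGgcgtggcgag
Syvn1: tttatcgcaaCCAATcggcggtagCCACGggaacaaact
Derl3: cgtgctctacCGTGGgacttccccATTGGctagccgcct

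On mm10 these are chr2:34772020-34772048 on the plus strand for Hspa5, which GENCODE places inside the gene, chr10:86705523-86705666 on the minus strand for Hsp90b1, and chr14:118937817-118937855 on the plus strand for Dnajc3. Creld2 is read at chr15:88819510-88819548 (plus), Calr at chr8:84847065-84847103 (minus), Canx at chr11:50325790-50325828 (minus), Pdia6 at chr12:17266481-17266519 (plus), Syvn1 at chr19:6046522-6046560 (plus) and Derl3 at chr10:75893232-75893270 (plus).

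The stretches with the CARE follow in the same way, and that of Herpud1 also carries its ERSE-II match. The matches of Trib3 and Dnajb11 lie after the start and are not printed.
Asns: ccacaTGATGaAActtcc
Chac1: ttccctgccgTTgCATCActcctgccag
Herpud1: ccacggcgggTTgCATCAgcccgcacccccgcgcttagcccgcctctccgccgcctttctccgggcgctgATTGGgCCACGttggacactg

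These are chr6:7693220-7693237 (minus, inside the GENCODE gene) for Asns, chr2:119351039-119351066 (plus) for Chac1 and chr8:94386307-94386397 (plus) for Herpud1.

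After filters, 9705 cells of CD163_NC and 13722 of CD163_FL were kept, with medians of 6024 and 6463 UMIs (unique molecular identifiers, each 1 captured RNA molecule) per cell. Clusters were named from marker genes, so each name means "like" that type. Unnamed clusters held 5.36% and 0.911% of cells. Plasma cells numbered 1783 in CD163_NC and 1748 in CD163_FL, and B cells 1961 and 1211. Levels are given in CPM, the UMIs of a gene summed over a class and given per 1000000 non-immunoglobulin UMIs of that class. The plasma cell markers Sdc1 and Prdm1 stood at 401 and 393 and at 134 and 275 CPM in plasma cells, against 9.09 and 8.75 and 5.18 and 10.3 in B cells. Against the CD45+ label, 252 and 96 cells were epithelial, with Ptprc (the gene of CD45) at 42.7 and 79.8 CPM against 1151 and 1335 in B cells. Cd163 had 3 UMIs in macrophages and monocytes of CD163_NC and 0 in those of CD163_FL (95% Poisson upper bound 0.469 CPM), too few to check the labels by. The libraries shared 49 barcodes as deposited and 38 among kept cells.

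Plasma cells fell into cluster 9, led by immunoglobulin genes, and cluster 12, led by Dnm3, Cped1 and Cpeb3. Cluster 9 held 90.9% of plasma cells in CD163_NC and 51.6% in CD163_FL, so different clusters make up the class in the 2 libraries. Malat1, a nuclear RNA, stood at 54213 and 43036 CPM in cluster 12 against 28800 and 28403 in cluster 9. None of the 39 genes was at least 1.5-fold higher or lower in cluster 12 than in cluster 9 in both libraries, where 3.56% and 3.16% of all measured genes were. The clusters did differ within CD163_NC, where 2 genes were higher in cluster 12 (Ern1 at log2 0.95 and Atf6 at 0.91) and 10 lower, among them Fkbp11 (-1.25), Mzb1 (-1.16) and Ssr4 (-1.05), beside 23.7% and 19.3% of measured genes. In CD163_FL 0 of the 39 passed either way, beside 6.66% and 6.65%.

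Immunoglobulin was left out of the denominator because its transcripts made up 41.0% and 42.5% of the UMIs of plasma cells but 1.42% and 1.23% of those of B cells. On that scale the 39 genes together made up 3.02% of UMIs in plasma cells of CD163_NC and 3.64% in CD163_FL, and 0.506% and 0.517% in B cells. Germinal center B cells held 0.557% and 0.580%, T and innate lymphoid cells 0.637% and 0.674%, macrophages and monocytes 0.676% and 0.835%, dendritic cells 0.712% and 0.906%, and epithelial cells 0.798% and 1.03%. The share nearest to that of plasma cells was in a small epithelial cluster of 23 and 22 cells led by Spink4, Retnlb and Muc2, at 1.60% and 1.49%.

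The same contrast held cell by cell. The summed level of the 39 genes had a median of 272.1 per 10000 non-immunoglobulin UMIs in non-cycling IgA plasma cells of CD163_NC (5th to 95th percentile 119.1 to 522.3) and 336.5 in CD163_FL (149.1 to 605.0). In B cells the medians were 49.6 (28.4 to 81.3) and 49.95 (26.0 to 86.2), so the central ranges of the 2 cell types did not overlap in either library. The highest medians were those of non-cycling IgG plasma cells, 369.5 and 384.2. Single cells are not replicates of a condition, and these ranges describe the cells of each library.

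**Figure D1:**
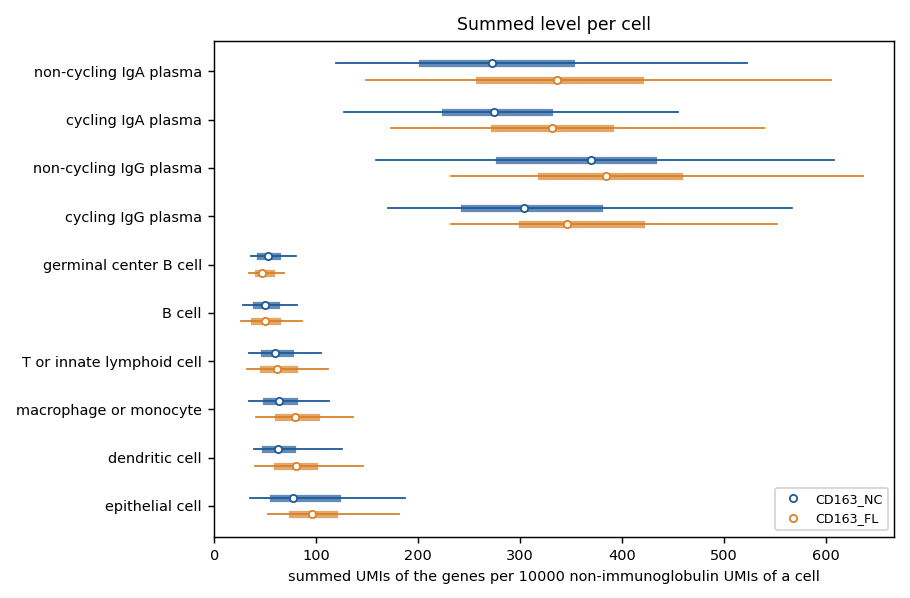
Summed UMIs of the 39 genes per 10000 non-immunoglobulin UMIs of a cell (horizontal axis), by class and library; points are medians over cells, thick bars run from the 25th to the 75th percentile and thin bars from the 5th to the 95th. All 4 plasma cell groups have medians between 272.1 and 384.2, and B cells have 49.6 and 49.95.

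Plasma cells were compared with B cells, their precursors, gene by gene. A gene was called when it differed at least 1.5-fold in the same direction in both libraries and had at least 20 UMIs over both classes in each. Of the 39 genes 34 were called higher in plasma cells and 0 lower, where 32.1% of all 12348 measured genes were called higher and 21.6% lower. The median log2 ratio over the 39 genes was 2.82 in CD163_NC and 2.97 in CD163_FL, against 0.15 and 0.17 over all measured genes. By role, 3 of 5 sensors and factors, 2 of 4 stress response targets, 8 of 9 chaperones and partners, 2 of 2 lectins, 4 of 4 disulfide isomerases, 7 of 7 degradation genes, 6 of 6 translocon and signal peptidase genes and 2 of 2 plasma cell ER factors were higher. Against germinal center B cells, 33 were higher and 0 lower, where 24% and 23.3% of measured genes were. Asns (log2 0.41 and 1.49), Syvn1 (0.51 and 1.04) and Canx (0.22 and 0.81) were called against B cells but not in this comparison. Ppp1r15a and Dnajb9 were called in this comparison but not against B cells. With non-cycling IgA cells in place of all plasma cells, 33 were higher than in B cells and 0 lower, where 29.5% and 25% of measured genes were.

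**Figure D2:**
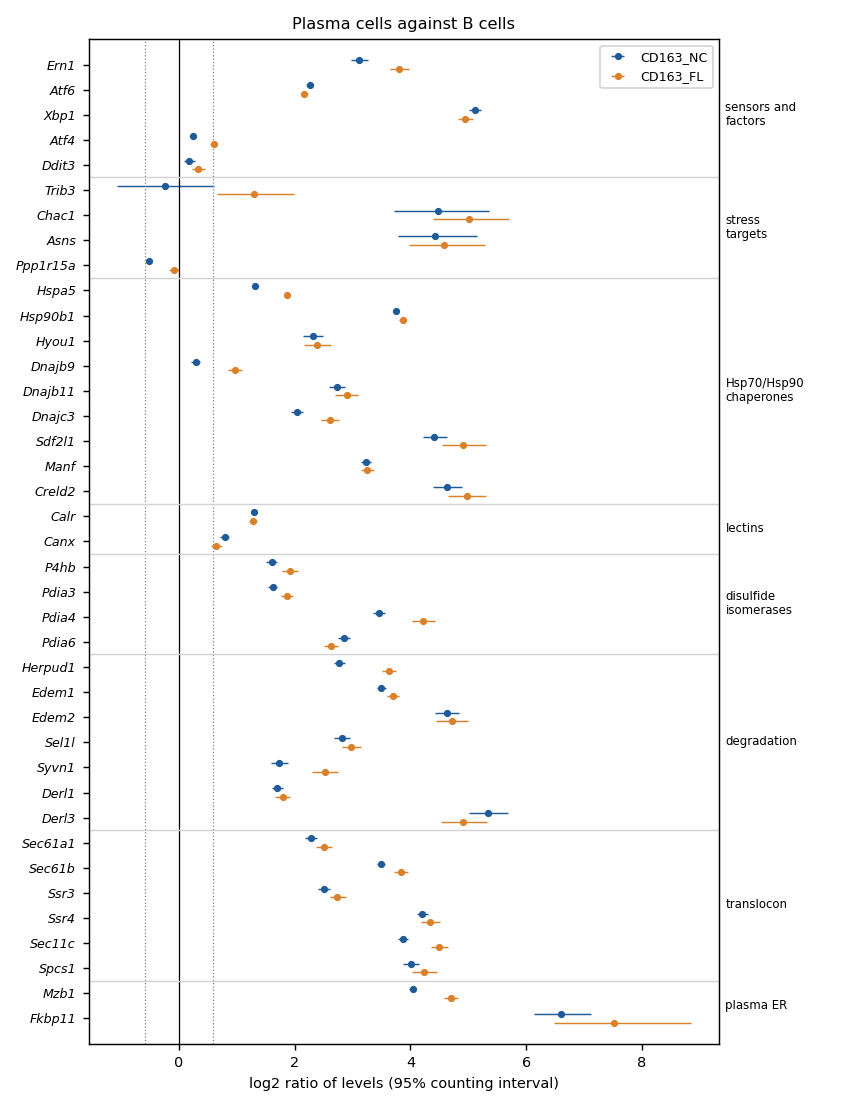
Log2 ratio of the level in plasma cells to that in B cells (horizontal axis) for each of the 39 genes, grouped by role, in CD163_NC and CD163_FL; bars are 95% counting intervals and dotted lines mark 1.5-fold. The points of 34 genes lie beyond the upper dotted line in both libraries, and Fkbp11 lies farthest out at 6.61 and 7.53.

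Among the sensors and factors, Xbp1 (chromosome 11, 5520659 to 5525893, mm10) stood at 2399 CPM in plasma cells and 69.4 in B cells of CD163_NC, and at 2599 and 84.0 in CD163_FL. The log2 ratios were 5.11 (95% counting interval 5.01 to 5.22) and 4.95 (4.82 to 5.09). The sensor genes Ern1 and Atf6 had log2 ratios of 3.12 and 3.81 and of 2.26 and 2.17. The gene of the sensor PERK, Eif2ak3, belongs to the other genes of the secretory pathway and was not raised in this way. It stood at 740 and 876 CPM in plasma cells, within the 1.5-fold limit of its B cell level, which rests on 8403 and 5186 UMIs. Atf4 and Ddit3 (CHOP, a factor downstream of ATF4 that is linked to cell death) were not called, with Ddit3 at 136 and 182 CPM in plasma cells and 121 and 144 in B cells, and log2 ratios of 0.18 and 0.33. Ddit3 is listed under 2 overlapping gene records whose UMIs were added, so its level is uncertain.

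The 4 targets of the integrated stress response did not share 1 pattern. Chac1, a glutathione-degrading enzyme, stood at 28.3 and 129 CPM in plasma cells against 1.27 and 3.99 in B cells (log2 4.48 and 5.01). Asns, which makes asparagine, had log2 ratios of 4.42 and 4.59. Ppp1r15a (GADD34, which directs a phosphatase to eIF2 alpha and so reopens translation) stood at 352 and 274 against 502 and 291, and Trib3 had log2 ratios of -0.24 and 1.29 on 33 and 191 plasma cell UMIs. Neither of these 2 was called. Against germinal center B cells Asns was not called (log2 0.41 and 1.49), and Ppp1r15a was (1.12 and 1.32).

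The Hsp90-type chaperone Hsp90b1 (GRP94) stood at 4367 and 6266 CPM in plasma cells against 323 and 429 in B cells (log2 3.76 and 3.87). Creld2, an ER-resident protein, had the largest ratio of this role, at 315 and 478 against 12.7 and 15.2 (log2 4.63 and 4.97). Hspa5, the Hsp70-type chaperone BiP, was closer between the 2 cell types, at 1934 and 2910.1 against 781 and 795 (log2 1.31 and 1.87). Dnajb9, a BiP partner, was the 1 gene of this role not called, at 0.29 and 0.97. The other 5 of the 9 (Hyou1, Dnajb11, Dnajc3, Sdf2l1 and Manf) lay between 2.04 and 4.91.

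Of the lectin chaperones, Calr stood at 844 and 985 CPM in plasma cells and 345 and 407 in B cells (log2 1.29 and 1.28), and Canx at 306 and 347 against 177 and 222 (0.79 and 0.64). Among the disulfide isomerases, Pdia4 stood apart most, at 747 and 773 against 68.0 and 41.4 (3.46 and 4.22), and Pdia3, which works with the lectins, least, at 451 and 552 against 147 and 152 (1.62 and 1.87). The membrane lectin and its isomerase partner thus had smaller ratios in both libraries than Hsp90b1 and Pdia4.

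Derl3, a derlin of the degradation channel, stood at 283 and 303 CPM in plasma cells and at 7.00 and 10.1 in B cells (log2 5.34 and 4.91). Its relative Derl1 had a smaller ratio, with 318 and 376 against 98.2 and 109 (1.69 and 1.79). Edem1, which draws misfolded glycoproteins out of the folding cycle, stood at 1258 and 1762 against 111 and 136 (3.50 and 3.69). Edem2 had log2 ratios of 4.63 and 4.71, and Herpud1, Sel1l and Syvn1 between 1.74 and 3.63. All 7 were called, and the 2 derlins had the largest and the smallest ratio of the role in both libraries.

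At the site of entry, Sec61b stood at 1879 and 1512 CPM against 166 and 106 in B cells (log2 3.50 and 3.84), Ssr4 (a translocon-associated protein) at 1453 and 1156 against 78.9 and 56.8 (4.20 and 4.35), and Sec61a1, the channel itself, at 373 and 475 against 76.4 and 83.8 (2.29 and 2.5). Ssr3 and the signal peptidase genes Sec11c and Spcs1 lay between 2.51 and 4.50. Mzb1, a cofactor of GRP94 in B lineage cells, stood at 3024 and 2698 against 184 and 104 (4.04 and 4.70). Fkbp11, an ER prolyl isomerase of secretory cells, had the largest ratio of all, at 310.05 and 245 against 3.18 and 1.33 (6.61 and 7.53).

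Fkbp11 in B cells was no higher, relative to plasma cells, than Jchain, a transcript of plasma cells. In T and innate lymphoid cells, which make no J chain, Jchain stood at 1.75% and 0.634% of its plasma cell level, and Fkbp11 at 1.92% and 0.707%. In B cells Fkbp11 stood at 1.03% and 0.543% of its plasma cell level beside 1.10% and 0.824% for Jchain. Its B cell level is therefore not read as expression, and its ratio to plasma cells, on 35 and 7 B cell UMIs, is set against that level. Mzb1 stood at 6.09% and 3.85% in B cells, above Jchain, and at 1.64% and 0.555% in T and innate lymphoid cells, at the level of Jchain. Derl3, at 2.47% and 3.32% in B cells, lay above Jchain by a smaller margin. Igha, the IgA heavy chain gene, stood at 1.85% and 1.30% in B cells. In T and innate lymphoid cells Derl3 stood at 2.79% and 1.39%, in CD163_NC above its B cell share.

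Detection at equal depth showed the same order. After each cell was thinned to 1000 non-immunoglobulin UMIs, 86.8% and 88.7% of non-cycling IgA plasma cells had an Xbp1 UMI, against 8.21% and 7.67% of B cells and 8.63% and 13.1% of T and innate lymphoid cells. Without thinning the shares were 98.6% and 98.5% against 30.1% and 28.6% in B cells, at medians of 8451.5 and 8168 against 4919 and 3932 non-immunoglobulin UMIs per cell. Thinning left out 6 and 3 of these plasma cells and 25 and 24 B cells. Hspa5 had a UMI in 75.3% and 84.3% of thinned plasma cells and 52.2% and 51.3% of B cells. For Chac1 the thinned shares in plasma cells were 3.26% and 11.6%, against 0.103% and 0.337% in B cells.

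Markers of other cell types were present in plasma cells at differing levels. The B cell list (7 genes) summed to 63.5 and 20.5 CPM in plasma cells and to 3726 and 2625 in B cells, and the macrophage list (10 genes) to 56.9 and 28.9 in plasma cells. The T cell list (6 genes) summed to 620 and 754 in plasma cells, against 3027 and 3076 in T and innate lymphoid cells. Cd28, a receptor that plasma cells are also known to carry, made up 405 and 618 of the plasma cell sums. The epithelial list (12 genes) summed to 168 and 148 in plasma cells, of which Epcam made up 99.3 and 125, and to 93.6 and 29.3 in B cells. Every gene of these 4 lists had a UMI in plasma cells of both libraries, and the part of such signal in the ratios was not tested.

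Of the other genes of the secretory pathway, 121 of 123 listed symbols are in the files and 119 were measured. Of these, 82 were higher in plasma cells than in B cells and 9 lower, where 32.1% and 21.6% of all measured genes were. The median log2 ratio was 1.52 and 1.69. ER to Golgi traffic had 17 of 20 higher, other folding and oxidation genes 15 of 18, N-glycan transfer and trimming 11 of 14, other translocon genes 10 of 14, other degradation genes 10 of 16, and other amino acid response targets 10 of the 11 measured. Other sensors and stress factors had 5 of 17 higher and 3 lower, near the shares over all measured genes. ER redox and calcium genes had 4 of 9 higher and 2 lower.

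The largest ratios of that list were those of Kdelr3, a receptor that returns escaped ER proteins (22.0 and 33.4 CPM against 0.364 and 0.190, log2 5.92 and 7.46), Selenom (5.18 and 7.27) and Pycr1, a proline synthesis enzyme (5.50 and 5.64). Their B cell levels rest on few UMIs: 4 and 1 for Kdelr3, 30 and 3 for Selenom, and 9 and 4 for Pycr1. These levels were not set against that of Jchain, so the size of the ratios is uncertain. Pdia5 also ranked among the 4, on few counts: 20 plasma cell UMIs against 1 in CD163_NC, and 41 against 0 in CD163_FL, which is at least 4.02-fold higher on a floor of 3 UMIs over the B cells of that library. Lowest were Cnpy3, a chaperone of Toll-like receptors (-3.18 and -3.25), the oxidase Ero1lb (-2.08 and -2.11), the oligosaccharyltransferase subunit Stt3b (-1.69 and -1.80) and the kinase Eif2ak4 (-1.51 and -1.32).

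Against all lineages with at least 50 cells, 9 classes in each library with plasma cells counted, plasma cells had the highest level of 32 of the 39 genes in both libraries, where 6.60% of all measured genes had theirs. For 26 of them the level was at least 1.5-fold above the next class in both libraries, against 2.65% of measured genes. Derl3 led, at 13.8-fold and 12.3-fold the next class, followed by Xbp1 at 9.90-fold and 9.77-fold and Edem2 at 8.36-fold and 11.1-fold. Mzb1 stood 6.16-fold and 7.41-fold above germinal center B cells, and Fkbp11 4.66-fold and 6.12-fold above epithelial cells. Creld2 (5.93-fold and 6.32-fold), Hsp90b1 (5.11-fold and 4.72-fold), Pdia4 (4.90-fold and 6.58-fold) and Chac1 (3.46-fold and 7.05-fold) were also set apart. Chac1 was next highest in germinal center B cells of CD163_NC and in dendritic cells of CD163_FL.

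A group of general folding genes was shared with other lineages. Hspa5 in plasma cells was 1.59-fold and 1.40-fold that of the next class, and Calr 1.13-fold and 1.33-fold. P4hb, a disulfide isomerase, stood higher in epithelial cells, the plasma cell level being 0.892 and 0.926 of theirs, and so did Pdia3, at 0.794 and 0.856. Canx, Atf4, Ern1, Trib3 and Ppp1r15a complete the 7 genes that were not highest in plasma cells in both libraries. Ern1 was lower in plasma cells than in T and innate lymphoid cells of CD163_NC (0.641 of their level) and higher in CD163_FL (1.37). Ppp1r15a was highest in macrophages and monocytes, and plasma cells had 0.401 and 0.415 of that level. Levels per UMI and per cell differ here. Counted as UMIs per cell, 14 and not 26 genes were at least 1.5-fold above the next class, where 1.60% of measured genes were. Epithelial cells had medians of 22463 and 30864.5 non-immunoglobulin UMIs against 9248 and 8981.5 in plasma cells.

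**Figure D3:**
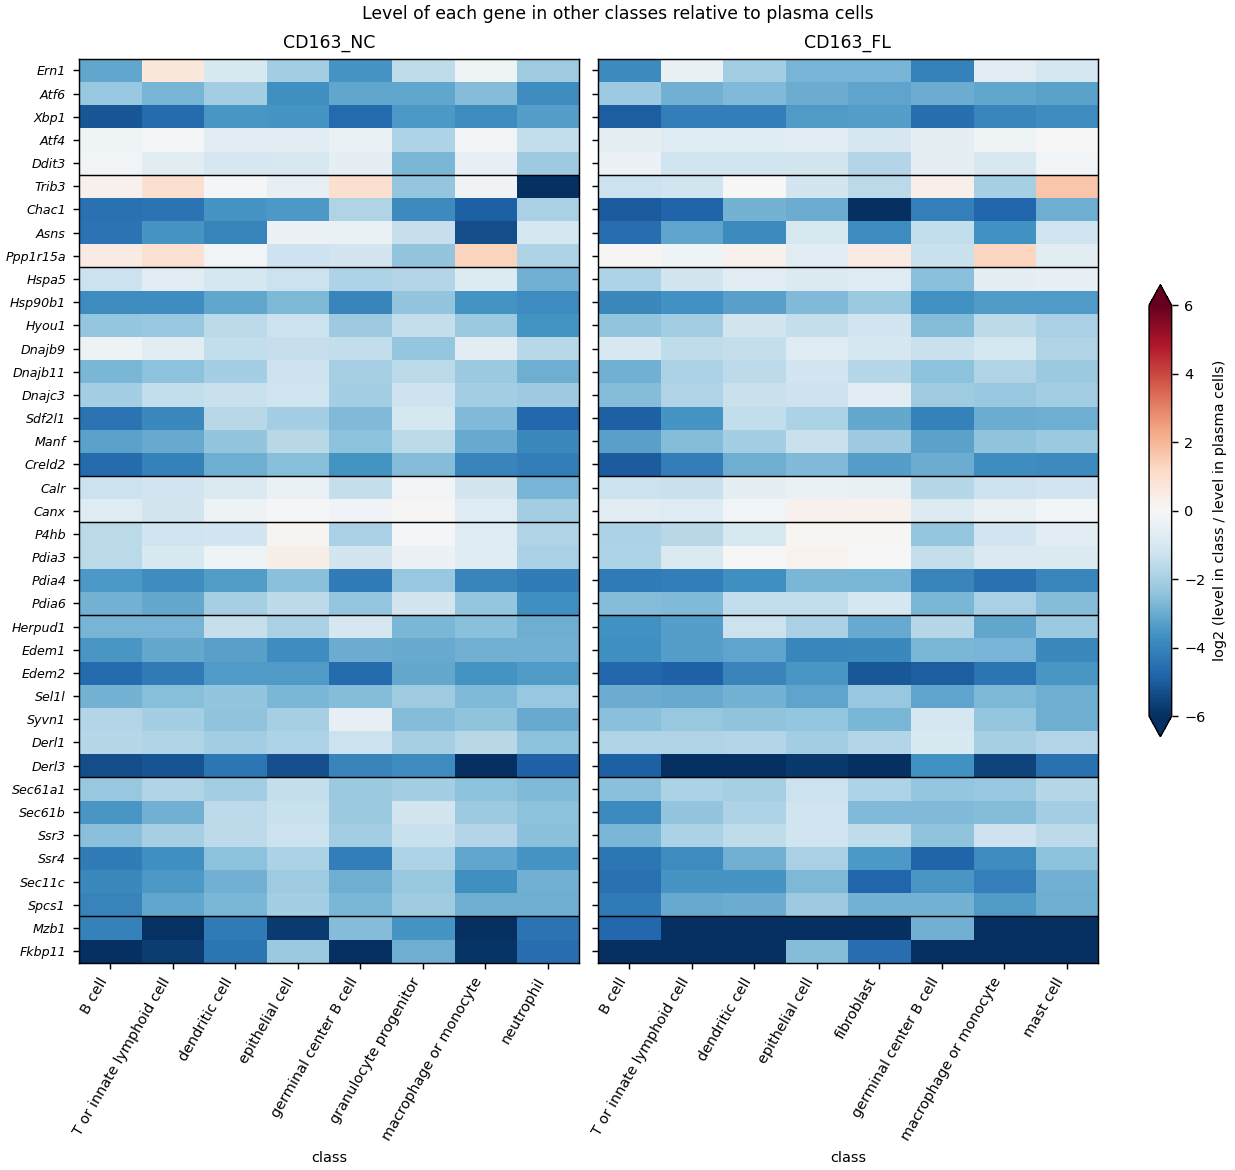
Log2 of the level of each of the 39 genes in another class relative to plasma cells (colour, which saturates at 6 in either direction, classes with no UMI included), for the classes with at least 50 cells in CD163_NC and CD163_FL. Blue fills most of both panels, and Ppp1r15a, which has 0.401 and 0.415 of the macrophage and monocyte level in plasma cells, is among the few rows with red cells.

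Most plasma cells made IgA. By the heavy chain that supplied at least 70% of a cell's constant region UMIs, 1614 and 1505 were IgA, 147 and 200 IgG, 8 and 11 IgM, and 14 and 32 were not assigned. Cells with a UMI in at least 5 of 20 cell cycle genes were taken as cycling, which is a range and not a type: 189 and 190 plasma cells lay within 2 genes below this limit and 48 and 39 within 2 genes from it upward. By that rule 18.0% (exact binomial 95% interval 16.1 to 19.9) and 13.8% (12.1 to 15.7) of IgA cells and 32.7% (25.2 to 40.9) and 37.5% (30.8 to 44.6) of IgG cells were cycling. The count of genes moves with depth, and cycling IgA cells had medians of 18855 and 17431.5 non-immunoglobulin UMIs against 8451.5 and 8168 in non-cycling ones.

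Non-cycling IgA cells (1324 and 1297) were compared with non-cycling IgG cells (99 and 125). Asns was called higher in IgA cells and Fkbp11 lower, 1 gene each way of 39, where 7.47% and 3.16% of measured genes were called. Fkbp11 stood at 269 CPM in IgA and 559 in IgG cells of CD163_NC, and at 207 and 372 in CD163_FL. The log2 ratios were -1.06 (-1.19 to -0.92) and -0.85 (-0.996 to -0.69). Asns stood at 43.8 against 24.9 and 110 against 66.8 (0.82 and 0.71), on 23 and 77 IgG UMIs, and its ratio in CD163_NC turned to -0.10 in cells thinned to 1000 UMIs.

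Within CD163_NC 1 of the 39 genes was past the 1.5-fold limit upward and 6 downward, beside 20.1% and 11.1% of measured genes. Within CD163_FL these were 3 and 1, beside 16.4% and 12.9%. The 6 were Fkbp11, Mzb1, Hsp90b1, Pdia3, Manf (log2 -0.69 and -0.25) and Pdia4 (-0.65 and -0.02). All of them but Pdia4 had counting intervals below 0 in both libraries. Mzb1 stood at 2666 against 4688 in CD163_NC (log2 -0.81) and 2546 against 3172 in CD163_FL (-0.32), Hsp90b1 at 3899 against 6712 (-0.78) and 5852 against 6653 (-0.19), and Pdia3 at 379 against 698 (-0.88) and 498 against 645 (-0.37). Xbp1 was close between isotypes, at 2902 against 2574 and 2949 against 2734 (0.17 and 0.11), and Atf6 at 0.00 and -0.20. Ppp1r15a had log2 ratios of 0.57 and 0.72, just short of the limit in CD163_NC. Over the 39 genes the medians were -0.28 and -0.07, against 0.02 and -0.08 over all measured genes. Among cycling cells 0 of 38 measured genes were called in either direction, where 3.12% and 1.39% of measured genes were.

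Other values differed with isotype. The B cell marker list summed to 156 and 46.0 CPM in non-cycling IgG cells and 43.1 and 16.5 in IgA cells. The macrophage list summed to 411 in IgG cells of CD163_NC, of which Apoe made up 393, and 330 of the 363 Apoe UMIs came from 4 cells. Adgre1 and Ms4a7 were at 0 there. Without those cells 2 genes were higher in IgA cells (Asns and Ppp1r15a) and Fkbp11 remained lower, where 7.44% and 3.05% of measured genes were. Immediate early and heat shock genes (13, Fos and Jun among them) summed to 16261 and 10279 in IgA and 9905 and 5113 in IgG cells. The part of these in the comparison was not tested.

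In IgA cells, 0 of the 39 genes were called higher in cycling (290 and 208) than in non-cycling cells and 7 lower, where 11.3% and 10.6% of measured genes were, but this direction depended on the scale. On all UMIs, immunoglobulins included, 8 were higher and 0 lower, where 31.8% and 3.39% of measured genes were. As UMIs per cell 25 were higher and 0 lower, where 75.4% and 0.751% of measured genes were. The direction over all measured genes thus moved with the scale as well. Immunoglobulin made up 25.6% and 29.2% of UMIs in cycling and 47.8% and 48.3% in non-cycling IgA cells. What follows is the composition of the RNA other than immunoglobulin. Xbp1 stood at 1589.6 CPM in cycling and 2902 in non-cycling cells of CD163_NC, and at 1934 and 2949 in CD163_FL. The log2 ratios were -0.87 (-0.90 to -0.84) and -0.61 (-0.65 to -0.57), and as UMIs per cell 0.35 and 0.53.

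Ppp1r15a stood at 195 against 449 and 183 against 337 (log2 -1.20 and -0.88), and Dnajb9, a target of XBP1, at 127 against 253 and 186 against 301 (-0.99 and -0.69). The degradation genes Derl3 (180.02 against 344 and 208 against 347) and Edem2 (292 against 555 and 373 against 601) were lower too, at -0.93 and -0.74 and at -0.93 and -0.69. Chac1 (-0.70 and -0.95) and Trib3 (-1.67 and -1.04, on 4 and 25 cycling UMIs) complete the 7. In UMIs per cell the signs of all of these but Trib3 in CD163_NC were positive.

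Of the 9 chaperones and partners Dnajb9 was called, and no lectin, isomerase, translocon or plasma cell ER gene was. Hspa5 (-0.31 and -0.15), Dnajc3 (-0.23 and -0.28), Hyou1 (-0.26 and -0.10) and Creld2 (-0.13 and -0.05) were on the lower side without passing the limit, and as UMIs per cell their signs were positive. Canx had log2 ratios of 0.48 and 0.49, Dnajb11 0.37 and 0.48, Pdia3 0.45 and 0.28, Hsp90b1 0.27 and 0.17 and Calr 0.17 and 0.08, and Pdia4 stood at -0.06 and -0.03. As UMIs per cell all ratios of a library move up by the same amount, because cycling cells hold more non-immunoglobulin UMIs. A ratio above 0 in composition therefore stays above 0 per cell by arithmetic. Atf4 lay at -0.47 and -0.37 and Asns at -0.43 and -0.49. Over the 39 genes the medians were -0.26 and -0.15, against -0.06 and 0.04 over all measured genes. In IgG cells 4 of 38 measured genes were lower in cycling cells (Ppp1r15a, Dnajb9, Syvn1 and Ssr4) and 0 higher, where 5.00% and 9.81% of measured genes were, and Xbp1 had -0.95 and -0.57. The immediate early and heat shock genes summed to 5786 and 4384 in cycling IgA cells, below the non-cycling values given above, and their part was not tested.

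**Figure D4:**
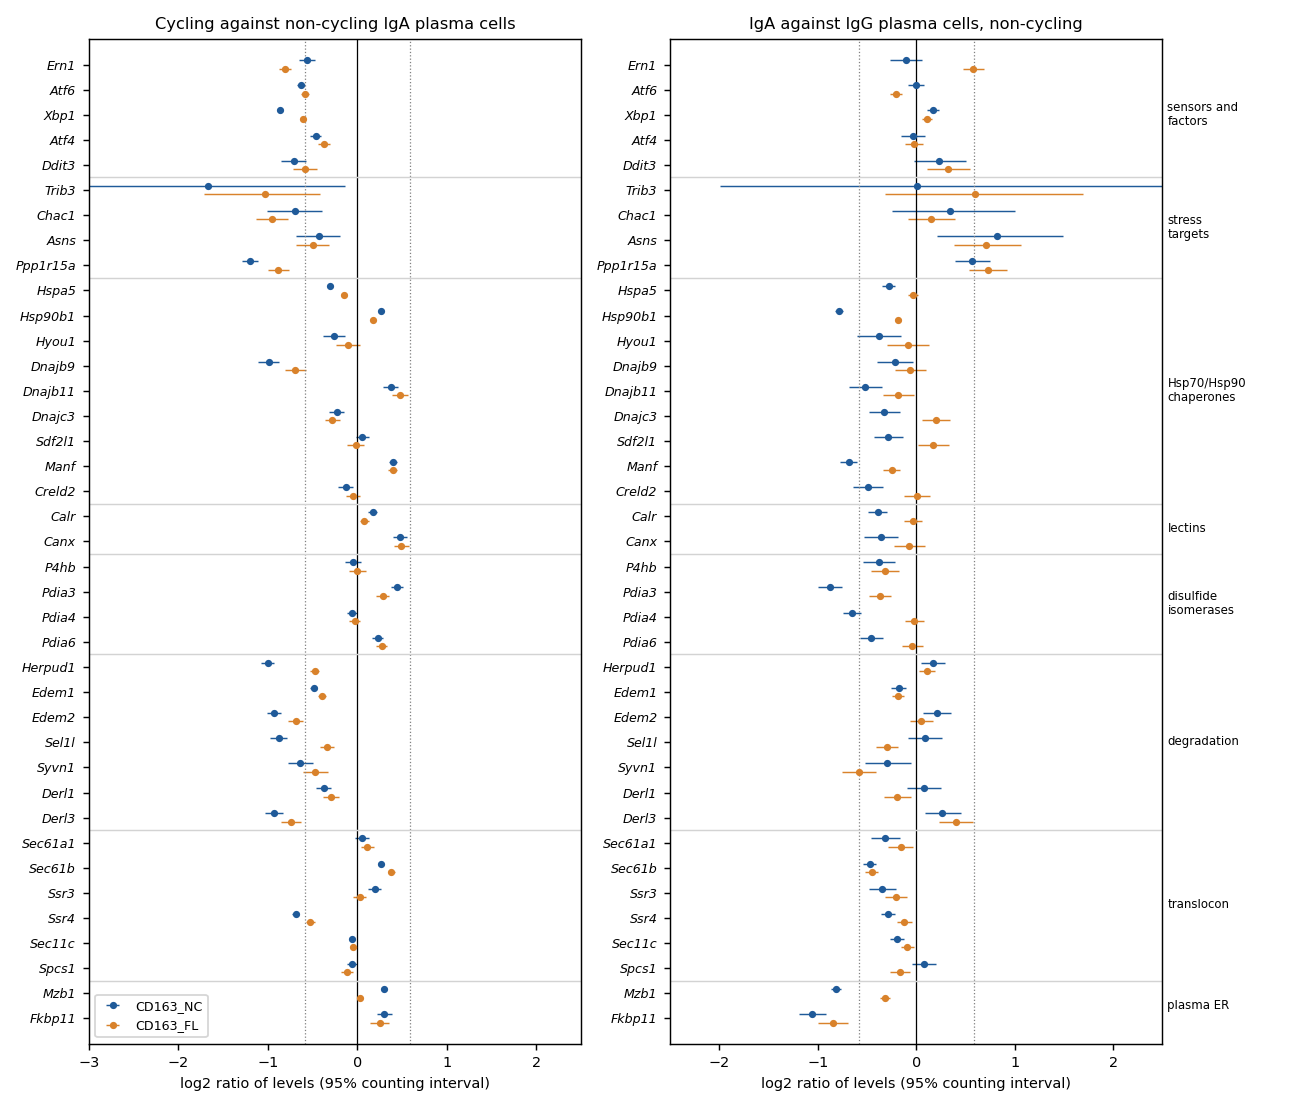
Log2 ratio of levels (horizontal axes) for each of the 39 genes in cycling against non-cycling IgA plasma cells and in IgA against IgG non-cycling plasma cells, by library; bars are 95% counting intervals, those of Trib3 in CD163_NC run past the axis, and dotted lines mark 1.5-fold. Ppp1r15a lies at -1.20 and -0.88 in the cycling panel, and Fkbp11 at -1.06 and -0.85 in the isotype panel.

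Antibody load per cell was approached through the share of immunoglobulin among the UMIs of non-cycling IgA cells, split into 4 groups of equal size with medians from 30.4% to 59.3% in both libraries. Comparing the top with the bottom group, Edem2 and Ssr4 were higher and Hsp90b1, Pdia3, Pdia4 and Fkbp11 lower, of 38 measured genes, where 4.85% and 6.89% of measured genes were. Hsp90b1 stood at 2783 CPM in the top and 5285 in the bottom group of CD163_NC, and at 4541 and 7616 in CD163_FL (log2 -0.93 and -0.75). Edem2 stood at 766 against 368 and 747 against 451 (1.06 and 0.73). Xbp1 had log2 ratios of 0.73 and 0.58, the latter under the 1.5-fold limit. The groups also differed in median mitochondrial share, 1.97% and 2.65% in the bottom against 1.44% and 1.98% in the top, whose part was not tested.

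Between the libraries, 8 of the 39 genes were at least 1.5-fold higher in plasma cells of CD163_FL than in those of CD163_NC and 0 were lower, where 13.3% and 14.5% of measured genes were. The median log2 ratio was 0.29, against 0.01 over all measured genes. Trib3, Chac1 and Asns, 3 of the 4 integrated stress response targets, were among them, with the sensor Ern1, the chaperone genes Hspa5 and Creld2, and the degradation genes Herpud1 and Sel1l. No isomerase, lectin, translocon or plasma cell ER gene was.

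Chac1 stood at 28.3 CPM in CD163_NC and 129 in CD163_FL (log2 2.18, 95% counting interval 2.05 to 2.32), Asns at 39.04 and 95.9 (1.30), and Trib3 at 1.69 and 10.7 on 33 and 191 UMIs (2.66). Ern1 stood at 304 and 796 (1.39) and Herpud1, a membrane adaptor of degradation, at 597 and 1274 (1.09). Sel1l, the partner of the ligase Syvn1, stood at 288 and 495 (0.78), Creld2 at 315 and 478 (0.60) and Hspa5 at 1934 and 2910.1 (0.59). The last 2 lie at the limit, and 5 of the 8 remained at 2-fold, where 4.30% of measured genes were higher. Xbp1, at 2399 and 2599, differed by 0.12, Ddit3 by 0.41, Atf4 by 0.55 and Hsp90b1 by 0.52. Ppp1r15a (-0.36), Sdf2l1 (-0.11), Ssr4 (-0.33) and Sec61b (-0.31) were on the other side of 0.

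The 4 genes with a CARE in their window, Trib3, Chac1, Asns and Herpud1, were all called, at 1.09 to 2.66. Of the 28 genes with a window and no CARE, 4 were called, with a median of 0.26 over the 28. Of the 9 genes with an ERSE, 2 were called (Hspa5 and Creld2), and the 9 ranged from 0.10 to 0.60, and of the 23 without it 6 were called, from -0.36 to 2.66. All 9 were higher in plasma cells than in B cells, with median log2 ratios of 2.04 and 2.61, as were 18 of the 23 without it, where the medians over the 23 were 3.12 and 3.69. These groups are few and overlap in role, so this is a description of the letters beside the ratios.

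Since cluster 9 held 90.9% and 51.6% of plasma cells, the comparison was repeated within clusters. Cluster 9 alone gave 9 genes higher and 0 lower, and cluster 12 alone, with 162 and 846 cells, 13 higher and 0 lower. In cluster 9, 11.6% of measured genes were higher and 13.6% lower, and in cluster 12, 12.8% and 15.4%. Chac1 had log2 ratios of 2.14 and 2.11 in clusters 9 and 12, Ern1 1.18 and 0.79, Herpud1 1.15 and 0.80 and Asns 1.21 and 0.90. Trib3 had 1 UMI in cluster 12 of CD163_NC against 107 in CD163_FL, a log2 ratio of 4.05 with an interval of 1.54 to 9.36. Hspa5 (0.69 and 0.32) and Sel1l (0.77 and 0.37) passed the limit in cluster 9 and not in cluster 12. The difference between clusters was not tested. In non-cycling IgG cells 6 of 38 measured genes were higher and 1 lower, where 22.5% and 10.9% of measured genes were. Chac1 (2.43), Asns (1.43), Herpud1 (1.013), Sel1l (0.98) and Ern1 (0.78) were past the 1.5-fold limit, Hspa5 (0.28) and Creld2 (0.08) were not, and Trib3, with 2 and 10 UMIs, was not measured. The immediate early and heat shock genes summed to 12194 and 8068 CPM in plasma cells of CD163_NC and CD163_FL, and median mitochondrial shares were 1.68% and 2.21%. The part of these in the comparison was not tested.

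The same genes were then followed through the 7 classes that reach 50 cells in both libraries, which share the 2 libraries and so are not independent. Of the 38 genes measured in all 7, 4 were higher in CD163_FL in at least 5 classes (Ern1, Trib3, Chac1 and Asns), where 2.81% of measured genes were. Lower in at least 5 was 1 (Mzb1), where 3.54% were. Fkbp11, not measured in germinal center B cells, was lower in 5 of the other 6 classes, and Sec61b was lower in 4 of the 7. No share of all measured genes was taken for these counts. In T and innate lymphoid cells Fkbp11 stood near Jchain relative to plasma cells, as given above. Chac1 stood at 1.32 and 4.56 CPM in T and innate lymphoid cells (log2 1.79) on 31 and 287 UMIs, at 0.966 and 4.70 in macrophages and monocytes on 4 and 37, and at 2.44 and 18.3 in dendritic cells on 3 and 106. The T and innate lymphoid class is held by different clusters in the 2 libraries: CD4-like cluster 1 had 1063 and 354 cells, CD4-like cluster 20 had 79 and 2129, CD8-like cluster 18 had 41 and 2745, and CD8-like cluster 7 had 693 and 436. Asns stood at 3.36 and 10.6 in T and innate lymphoid cells on 79 and 667 UMIs (1.66), and at 30.5 and 49.99 in epithelial cells (0.71). Ern1 was higher in macrophages and monocytes, at 253 and 516 (1.03), and within the limit in T and innate lymphoid cells, at 474 and 581 (0.29). The count of genes higher in at least 5 classes was 1 when at least 50 UMIs per gene were asked for. It was 0 when cells were thinned to 1000 UMIs. Both settings also leave fewer genes measured, and no share of all measured genes was taken at them.

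Mzb1 was at least 1.5-fold lower in CD163_FL in B cells (184 and 104, log2 -0.82), T and innate lymphoid cells (49.7 and 15.0, -1.73), macrophages and monocytes (-0.96), dendritic cells (159 and 14.6, -3.44) and epithelial cells (-1.55). Outside the plasma cells Jchain was lower in CD163_FL too, at 1137 and 448 CPM in T and innate lymphoid cells and 1269 and 503 in dendritic cells, and in plasma cells it stood at 64866 and 70698. The part of free plasma cell RNA in these values and in those of Fkbp11 was not tested. Plasma cells made up 18.4% of kept cells in CD163_NC and 12.7% in CD163_FL.

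Class by class, with the share of measured genes in brackets, 5 genes were higher and 6 lower in B cells (11.7% and 15.8%), 6 and 4 of 38 in germinal center B cells (23.1% and 20.1%), 5 and 4 in T and innate lymphoid cells (10.2% and 23.3%) and 9 and 2 in epithelial cells (15.4% in each direction). Macrophages and monocytes had 13 higher and 4 lower (14.5% and 36.8%) and dendritic cells 10 and 5 (14.5% and 31.3%). In those last 2 classes the median of all measured genes was itself shifted, by -0.32 and -0.23. Relative to it 21 genes were higher and 2 lower in macrophages and monocytes, and 22 and 3 in dendritic cells, where 24% and 24% and 21% and 22.6% of measured genes were. Hspa5 stood at 1093 and 1939 CPM in macrophages and monocytes (0.83), 929 and 1879 in dendritic cells (1.02) and 792 and 1609 in epithelial cells (1.02), and at 781 and 795 in B cells (0.03). The cluster led by Spink4, Retnlb and Muc2 held 23 of 252 epithelial cells in CD163_NC and 22 of 96 in CD163_FL, and the part of this makeup was not tested. Of the other pathway genes, 19 of 119 were higher in plasma cells of CD163_FL and 1 lower, where 13.3% and 14.5% of measured genes were. Of the 112 measured in all 7 classes, Ppp1r15b and Bcl2l11 were higher in at least 5 and Eif2ak2 lower, where 2.81% and 3.54% of measured genes were. These genes were named after their values were seen.

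**Figure D5:**
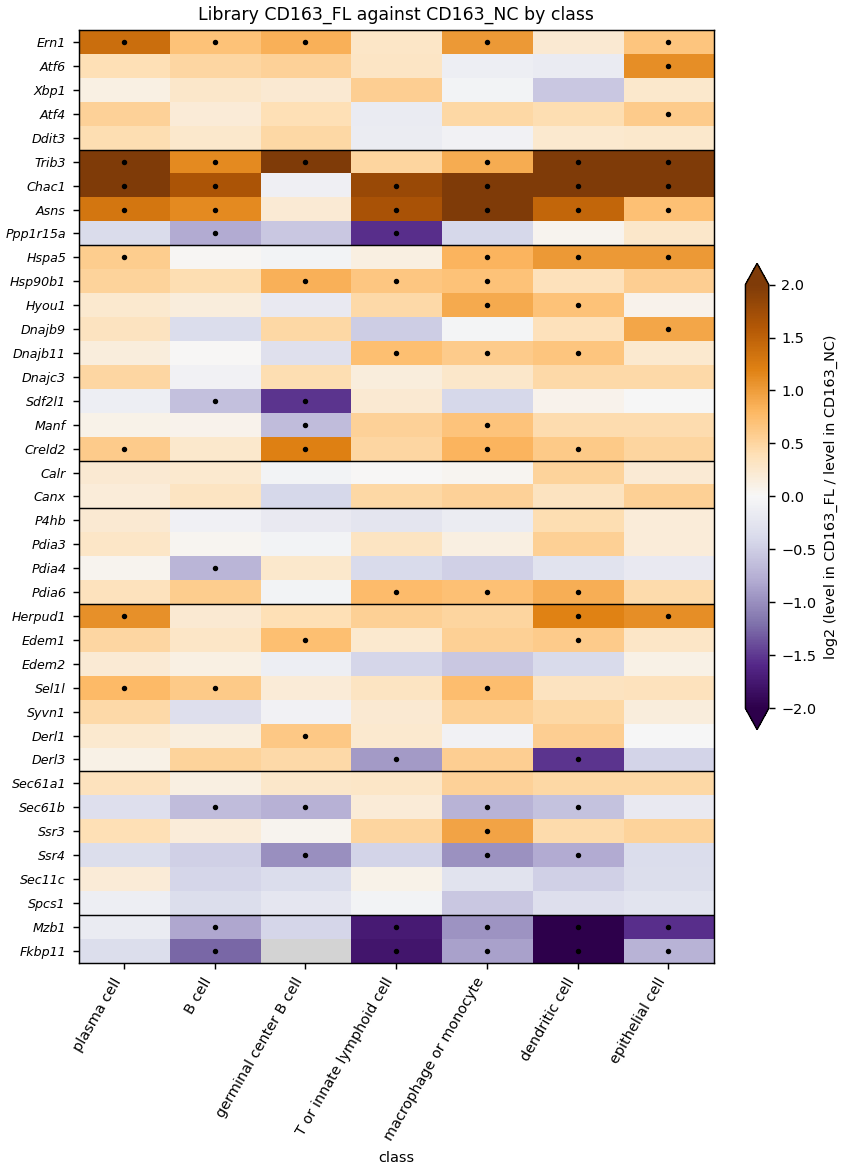
Log2 ratio of the level in CD163_FL to that in CD163_NC (colour, which saturates at 2 in either direction) for each of the 39 genes in 7 classes; dots mark ratios of at least 1.5-fold and grey a gene that was not measured (Fkbp11 in germinal center B cells). The rows of Trib3, Chac1 and Asns are filled with orange in most classes, and that of Mzb1 with purple.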

How the data were processed

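Single-cell RNA-seq counts were analysed in 2 libraries, CD163_NC and CD163_FL, 1 per group. The deposited matrices hold raw UMI counts per gene and cell, made with Cell Ranger 7.1.0 per the file headers. The submitters' processing notes also name Seurat 4 and mm10. The libraries held 10390 and 15270 barcodes with 94729872 and 131306539 UMIs. Replicate spread cannot be measured, so no test was made and intervals cover counting error only.

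Cells with under 500 UMIs, under 200 genes or over 10% mitochondrial UMIs were removed. Scrublet, as run in scanpy 1.11.5 (Python 3.11.15), called 308 (2.97%) and 665 (4.36%) doublets, which were removed, against expected shares of 8.31% and 12.2%. Cells were clustered on 2000 variable genes, 30 principal components and 15 neighbours (Leiden resolution 1) without the genes studied here, their pathway, cell cycle genes or immunoglobulin variable segments. The 31 clusters were named from 25 marker lists, of which at least 3 markers had to be detected. How clusters were named, split and merged was settled after the clusters were seen, so class names rest on rebuilt labels.

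UMIs were summed over each class and divided by its non-immunoglobulin UMIs. Levels carry exact Poisson and ratios exact conditional binomial 95% intervals. A gene was called at 1.5-fold in the same direction in both libraries, or at 1.5-fold between libraries, with at least 20 UMIs. Isotype required 70% of heavy-chain constant UMIs and at least 20 of them, and classes at least 50 cells. The procedure was run on simulated Poisson counts drawn from a shared profile, with changes alike in both libraries. That run checks the counting only, since it holds no spread between cells, clusters or libraries. In each comparison, values were printed for the genes of each role with the largest ratio, the smallest ratio and the most UMIs. Called genes outside that rule were named after their values were seen. The genes and lists were chosen with earlier results of these data known. Alternatives included other denominators, thinning, other limits and single clusters. Sequences are from RefSeq. Promoter windows of Atf6, Hyou1, Manf, Derl1, Sec61a1, Sec11c and Mzb1 were not used here.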

Additional observations from a re-analysis of the deposited data

Results flagged for a closer look

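Manf, a secreted ER stress protein, went in opposite directions in 2 classes. Between CD163_NC and CD163_FL its level was 126 and 202 CPM (per 1000000 non-immunoglobulin UMIs) in macrophages and monocytes (log2 ratio 0.68), and 181 and 116 in germinal center B cells (log2 ratio -0.65). The difference between the classes was not tested, each class rests on 1 library per group, and germinal center B cells numbered 50 in CD163_FL.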

How the results depend on the processing

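No paired analysis was possible because each group has 1 library. Leaving out a replicate was not possible for the same reason. In plasma against B cells, 31 of 34 calls held under every setting (not Hspa5, Calr and Canx). On all UMIs 1 gene was lower, where 44.5% of measured genes were, and Canx stood at -0.14 in CD163_FL. Of the 8 genes higher in CD163_FL, Ern1, Chac1, Asns and Herpud1 held under all 13 settings. That count was 5 at a 2-fold limit, 5 thinned and 13 in cluster 12 only, where 4.30%, 17.8% and 12.8% of measured genes were higher. Genes higher in at least 5 of 7 classes numbered 1 at 50 UMIs and 0 thinned. Genes lower in as many numbered 0 at 2-fold and 2 with doublets kept. No share of all measured genes was taken at these settings, so these counts have no background beside them.

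Between isotypes, with the share of measured genes in brackets, genes higher in IgA numbered 0 on all UMIs (4.58%) and 0 at 2-fold (3.46%). They numbered 2 with cycling at 8 genes (7.14%) and 2 without the Apoe cells (7.44%). Genes lower numbered 3 on all UMIs (10.3%) and 0 at 2-fold (0.641%). Asns turned to -0.10 in CD163_NC when thinned. In cycling against non-cycling IgA cells, genes higher numbered 8 on all UMIs and 25 per cell, where 31.8% and 75.4% of measured genes were. Genes lower, with the share of measured genes in brackets, numbered 0 on both of these scales (3.39% and 0.751%), 1 at 2-fold (3.87%) and 3 thinned (9.55%). They numbered 3 with cycling at 3 genes (6.11%), 11 in cluster 9 only (10.4%) and 4 in IgG cells (5.00%). As UMIs per cell the log2 ratios turned to 0.35 and 0.53 for Xbp1, 0.10 for Trib3 in CD163_FL, 0.52 and 0.19 for Chac1, 0.017 and 0.26 for Ppp1r15a, 0.22 and 0.45 for Dnajb9, 0.29 and 0.45 for Edem2 and 0.28 and 0.40 for Derl3. Chac1 stood at 0.12 in IgG cells of CD163_NC.

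Genes above the next lineage numbered 15 on all UMIs and 14 per cell, where 0.971% and 1.60% of measured genes were. On all UMIs Dnajc3 turned to -0.10 in CD163_FL. Per cell, ratios turned to -0.13 for Hyou1, -0.42 for Dnajb11, -0.34 for Dnajc3, -0.23 for Manf, -0.12 for Pdia6, -0.28 for Sec61a1, -0.39 for Sec61b and -0.39 for Ssr3 in CD163_FL, and to -0.060 for Dnajc3, -0.26 for Sdf2l1, -0.23 for Pdia6 and -0.24 for Sec61b in CD163_NC. The causes were not tested. Depth limits Trib3 most, with 33 UMIs in plasma cells of CD163_NC.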
